A study of Rattus norvegicus with 16 samples.

Results

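The mucins and the goblet cell program were examined on 16 one-colour arrays from lung and adipose tissue of 8 male Brown Norway rats. The set held 9 genes, which were the mucins Muc1, Muc4, Muc5ac and Muc5b together with Spdef, Foxa3, Agr2, Clca1 and Bpifa1. A gene was taken as measured where the RefSeq transcript that the array file gives for a probe belonged to that gene, and the brightest probe in lung was used. Spdef, Foxa3, Agr2, Clca1 and Bpifa1 were each measured by 1 probe, so 5 of the 9 genes were described out of 16678 gene symbols with a probe. The 4 mucins matched no probe through the gene table and were not analysed here.

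The rats are described as 7 weeks old at sensitization, and the tissues were taken after the injections and challenges. In the allergen group, 5 rats received 45 µg of house dust mite (HDM) under the skin with the adjuvant Al(OH)3 weekly for 3 weeks, followed by 120 µg of HDM into the nose 3 times a week for another 3 weeks. The 3 control rats were given saline by both routes, with the same adjuvant under the skin, so the adjuvant was common to every rat. Both tissues of a rat were hybridised, which gave 8 arrays for lung and 8 for adipose tissue. Adipose tissue served as the reference without airway epithelium. The lung RNA came from whole minced tissue, in which fewer cells of a type and less RNA per cell cannot be told apart.

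Goblet cells are the mucus-secreting cells of the airway surface. In allergic airways the cytokines IL-4 and IL-13 act through the transcription factor STAT6 on airway epithelial cells, and the transcription factors SPDEF and FOXA3 then drive secretory cells towards mucus production. AGR2 is a protein disulfide isomerase of the endoplasmic reticulum that mucin folding depends on. CLCA1 is a metalloprotease secreted with mucus and a classic marker of IL-13 exposure, and BPIFA1 (also SPLUNC1) is an abundant secreted defence protein of the upper and large airways.

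Clca1, Agr2 and Bpifa1 were the genes of the set with a wide spread between rats and a signal well above background on every lung array. The windows from 250 bases before to 50 bases after their annotated starts, from the RefSeq table on the GRCr8 build, are shown 5′ to 3′ because the description of the lungs rests mainly on these genes. Capitals mark a match to any of 4 motifs on either strand.
Clca1, chr2:236624665-236624964, minus strand: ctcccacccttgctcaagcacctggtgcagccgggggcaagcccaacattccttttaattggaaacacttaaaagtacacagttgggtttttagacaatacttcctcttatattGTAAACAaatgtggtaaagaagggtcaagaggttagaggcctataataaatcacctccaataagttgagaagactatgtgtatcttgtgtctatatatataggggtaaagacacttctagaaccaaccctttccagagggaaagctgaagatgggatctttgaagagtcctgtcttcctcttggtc
Agr2, chr6:58435658-58435957, plus strand: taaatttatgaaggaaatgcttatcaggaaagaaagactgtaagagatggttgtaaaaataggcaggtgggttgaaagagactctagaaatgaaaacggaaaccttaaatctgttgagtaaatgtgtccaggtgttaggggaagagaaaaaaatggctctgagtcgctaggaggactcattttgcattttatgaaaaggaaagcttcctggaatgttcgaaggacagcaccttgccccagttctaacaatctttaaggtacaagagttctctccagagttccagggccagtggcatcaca
Bpifa1, chr3:163087715-163088014, plus strand: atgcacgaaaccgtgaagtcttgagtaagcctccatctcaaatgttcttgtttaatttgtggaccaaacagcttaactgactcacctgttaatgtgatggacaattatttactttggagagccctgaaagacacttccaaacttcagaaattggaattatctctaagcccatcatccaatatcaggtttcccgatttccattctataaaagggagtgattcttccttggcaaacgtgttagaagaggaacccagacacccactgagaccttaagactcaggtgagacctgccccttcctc

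The motifs searched were the forkhead forms TGTTTAC and TGTTTGC, the STAT6-type form of TTC and GAA separated by 4 bases, and the ETS-type form CCGGAT that resembles the SPDEF site. They did not overlap in these windows. The Clca1 window held 1 match, to TGTTTAC on the opposite strand, beginning 136 bases before the start. The Agr2 and Bpifa1 windows held none of these letters, nor did those of Spdef and Foxa3. Over 33469 windows of 300 bases in the same table, TGTTTAC was present in 3.78%, TGTTTGC in 4.88%, the STAT6-type form in 7.28% and CCGGAT in 6.64%.

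Levels are given as log2 of the scanner's processed signal relative to the 75th percentile of the array, so 0 marks a probe as bright as that percentile. The 75th percentile was 376 to 488 signal units on the lung arrays and 111 to 240.0 on the adipose arrays. Lung arrays had 62.2% to 68.8% of their probes well above background, and adipose arrays 51.0% to 60.3%. All lung arrays shared a slide and all adipose arrays another, so tissue and slide cannot be told apart. On both slides HDM rats 1 to 4 lay in row 1, and HDM rat 5 lay in row 2 with the 3 controls. Adipose arrays of control rat 1 and HDM rat 1 stood apart through epididymis genes, and several results that rest on them are given with and without them. As a check of the tissue labels, all 5 measured club cell markers and all 6 alveolar type 2 markers were well above background on every lung array. All 8 adipocyte markers were so on every adipose array, but 6 to 8 of them were so on the lung arrays too. Their summed level, in multiples of the 75th percentile, was 1726 to 2998 on adipose arrays and 10.7 to 39.8 on lung arrays.

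In lung, none of the 5 goblet cell genes differed between HDM and control rats by limma with Benjamini-Hochberg adjustment over 45598 probes (called at adjusted p below 0.05 and over 1.5-fold). By that rule 0.855% of all probes were called in lung. At an unadjusted p below 0.05, 1 of the 5 genes passed, beside 10.2% of all probes, and the methods' t-test gave the same counts of 0 and 1. For Foxa3, Agr2, Clca1 and Bpifa1 the 95% interval of the difference covered both directions, and their lung values are described rat by rat.

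**Figure D1:**
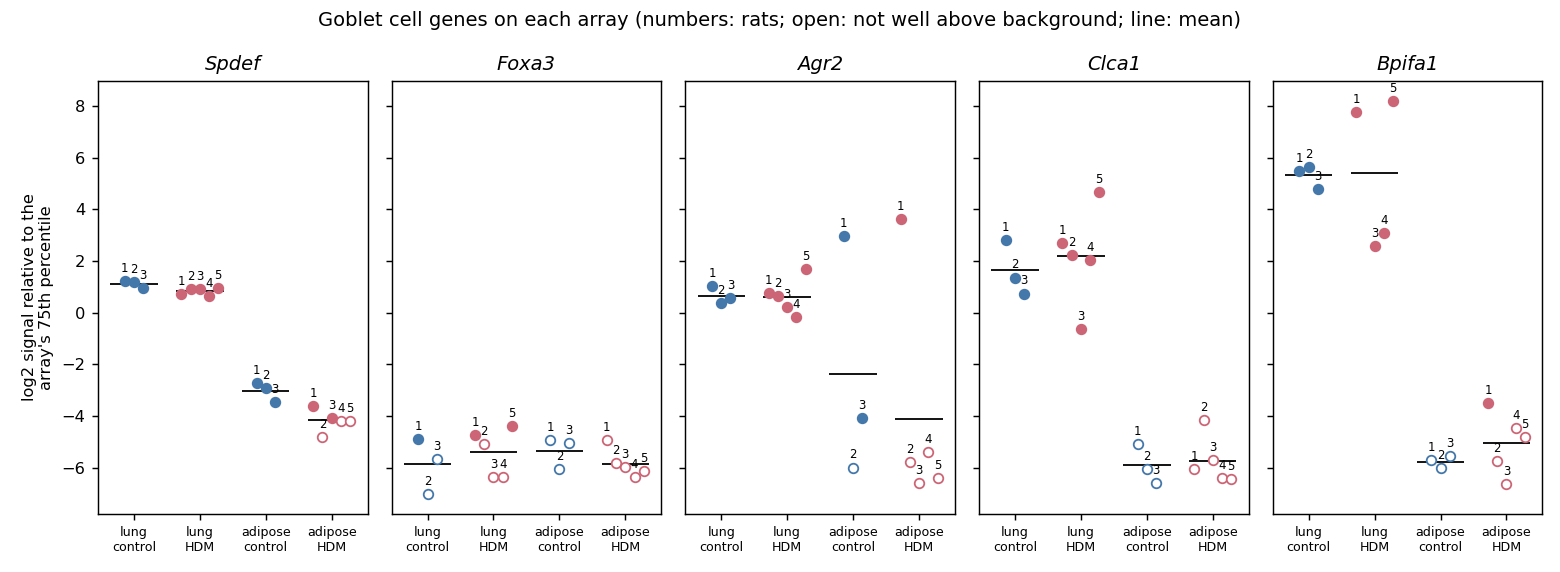
Level of the 5 goblet cell genes on each of the 16 arrays, as log2 signal relative to the array's 75th percentile. Points are rats with their numbers, open points are not well above background and lines are group means. Spdef is tight in lung, Clca1 and Bpifa1 are spread most among the HDM rats, and Agr2 is high on adipose arrays of control rat 1 and HDM rat 1.

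Spdef, the ETS factor at the head of the goblet cell program, was the steadiest of the 5 genes in lung. Its log2 levels were 1.23, 1.18 and 0.97 in control rats 1 to 3, and 0.74, 0.90, 0.90, 0.64 and 0.98 in HDM rats 1 to 5. Of the 5 HDM rats, 4 lay under the lowest control, and HDM rat 5 lay just over it, so the groups overlapped by 1 rat. Mean levels were 0.83 ± 0.14 (SD, n = 5) with HDM and 1.12 ± 0.14 (SD, n = 3) in controls. The difference of -0.29 (SE 0.12) on the log2 scale, or 1.22-fold lower with HDM, had an unadjusted limma p of 0.0442 and an adjusted p of 0.467. The exact two-sided permutation test over 56 splits gave p = 0.0357, where the smallest possible value is 0.0179.

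Foxa3, a forkhead factor that can itself drive mucus production in airway cells, was near the limit of detection. Its probe was well above background on 3 of 8 lung arrays, those of control rat 1 and HDM rats 1 and 5, and on none of the adipose arrays. The log2 levels in lung were -4.90, -7.02 and -5.67 in control rats 1 to 3 and -4.74, -5.10, -6.35, -6.35 and -4.39 in HDM rats 1 to 5. HDM rats 1 and 5 lay above all controls, control rat 2 lay below all HDM rats, and the other values overlapped. The difference was 0.48 (SE 0.62) with an adjusted p of 0.936 by limma, and values not well above background carry no order.

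Agr2, the mucin-folding disulfide isomerase, was well above background on all 8 lung arrays. Its log2 levels in lung were 1.03, 0.37 and 0.56 in control rats 1 to 3 and 0.75, 0.65, 0.21, -0.18 and 1.70 in HDM rats 1 to 5. HDM rat 5 was the highest of all and HDM rats 3 and 4 the lowest, so the HDM group surrounded the controls on both sides. The group difference was -0.03 (SE 0.40), with a 95% interval from -0.94 to 0.89 and an adjusted p of 1.00 by limma. The sign of so small a difference changed with several settings.

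Clca1, the secreted marker of IL-13 exposure, was also well above background on all lung arrays. Its log2 levels were 2.81, 1.37 and 0.75 in control rats 1 to 3 and 2.69, 2.25, -0.63, 2.04 and 4.67 in HDM rats 1 to 5. The highest HDM rat exceeded the lowest by 39.5-fold, against 4.18-fold between the highest and lowest controls. HDM rat 5 lay above all controls, HDM rat 3 lay below all controls, and the other 3 HDM rats fell within the control range. The means were 2.21 ± 1.90 (SD, n = 5) with HDM and 1.64 ± 1.06 (SD, n = 3) in controls. The difference was 0.56 (SE 1.06), with a 95% interval from -1.89 to 3.02, an adjusted p of 0.975 by limma and an exact permutation p of 0.661. Without HDM rat 5 it was -0.05, and without HDM rat 3 it was 1.27.

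Bpifa1, the airway defence protein, had the widest spread of the 5 genes. Its log2 levels were 5.50, 5.65 and 4.81 in control rats 1 to 3 and 7.76, 2.59, 3.08 and 8.21 in HDM rats 1, 3, 4 and 5. The spot of HDM rat 2 was marked as an outlier by the scanner software and left out of this fit, and its level with outlier spots kept was 4.06. The HDM rats therefore fell on both sides of the controls, with rats 1 and 5 above all of them and rats 3 and 4 below all of them. The highest HDM value was 49.2-fold the lowest, and the highest control value was 1.79-fold the lowest. The mean difference was 0.09 (SE 1.52; n = 4 and 3), with a 95% interval from -3.50 to 3.68 and an adjusted p of 1.00 by limma. With the outlier spot kept, the difference was -0.18, with an adjusted p of 1.00.

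The spread between rats was wide for Bpifa1, Clca1 and Agr2, but not for these genes alone. Among 26673 probes well above background on every lung array, the median SD between the HDM rats was 0.20 on the log2 scale. The SDs of Bpifa1 (2.99) and Clca1 (1.90) exceeded those of over 99.9% of these probes, the SD of Agr2 (0.71) exceeded 97.6%, and that of Spdef (0.14) exceeded 26.8%. Among the control rats, Clca1 was at the 99.8th percentile for SD and Bpifa1 at the 96.0th. Among airway basal cell markers, the SD between the HDM lungs was 2.21 for Dlk2, 1.77 for Krt14 and 1.38 for Krt15. It was 0.24 for Ngfr and 0.13 for Tp63. These percentiles and SDs are descriptions, and no test of unequal spread was made.

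HDM rat 5, which had the highest Clca1, Agr2 and Bpifa1, was the one HDM rat in the row of the controls. With the row as a block, which compares HDM rat 5 with the 3 controls, the difference was 3.03 (SE 1.33) for Clca1, 2.89 (SE 1.94) for Bpifa1 and 1.05 (SE 0.41) for Agr2, with adjusted p-values of 0.722, 0.876 and 0.694 by limma. In the same fit Foxa3 was 1.48 (SE 0.93) and Spdef -0.15 (SE 0.19; adjusted p = 0.908 by limma). These values rest on HDM rat 5 as the only treated rat, and for Clca1, Agr2 and Bpifa1 the controls of its row overlapped the HDM rats of row 1. Row 1 held only HDM rats and gave no comparison of its own. Within row 1, Clca1 still ranged from -0.63 to 2.69 and Bpifa1 from 2.59 to 7.76.

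Levels of the members were set against each other over the lung arrays. Of the 10 pairs among the 5 genes, the pair of Agr2 and Clca1 gave Pearson r = 0.74 (exact permutation p = 0.0402) and Spearman rho = 0.83 (exact permutation p = 0.0154) over 8 lung arrays. Agr2 and Bpifa1 gave r = 0.82 (exact permutation p = 0.0224) and rho = 0.79 (exact permutation p = 0.0480) over 7 arrays. Clca1 and Bpifa1 gave r = 0.79 (exact permutation p = 0.0363) and rho = 0.75 (exact permutation p = 0.0663) over the same 7 arrays. After adjustment over the 10 pairs, the smallest p was 0.0805 for r and 0.0513 for rho, so none passed 0.05. With group means removed, r was 0.76, 0.82 and 0.80 for the same 3 pairs.

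Leaving out the 2 arrays farthest from the median of the first gene gave r = 0.87 for Agr2 with Clca1 and 0.60 for Agr2 with Bpifa1. For Clca1 with Bpifa1 it gave 0.37, so that relation rested on HDM rats 3 and 5. Foxa3 had r = 0.81 with Agr2 (exact permutation p = 0.00995), 0.73 with Clca1 (exact permutation p = 0.0352) and 0.72 with Bpifa1 (exact permutation p = 0.0764), each with an adjusted p of at least 0.0805, but most of its lung values were not well above background. Spdef, the factor upstream of the program, had r between -0.02 and 0.42 with the other 4 genes, and between 0.29 and 0.62 with group means removed.

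**Figure D2:**
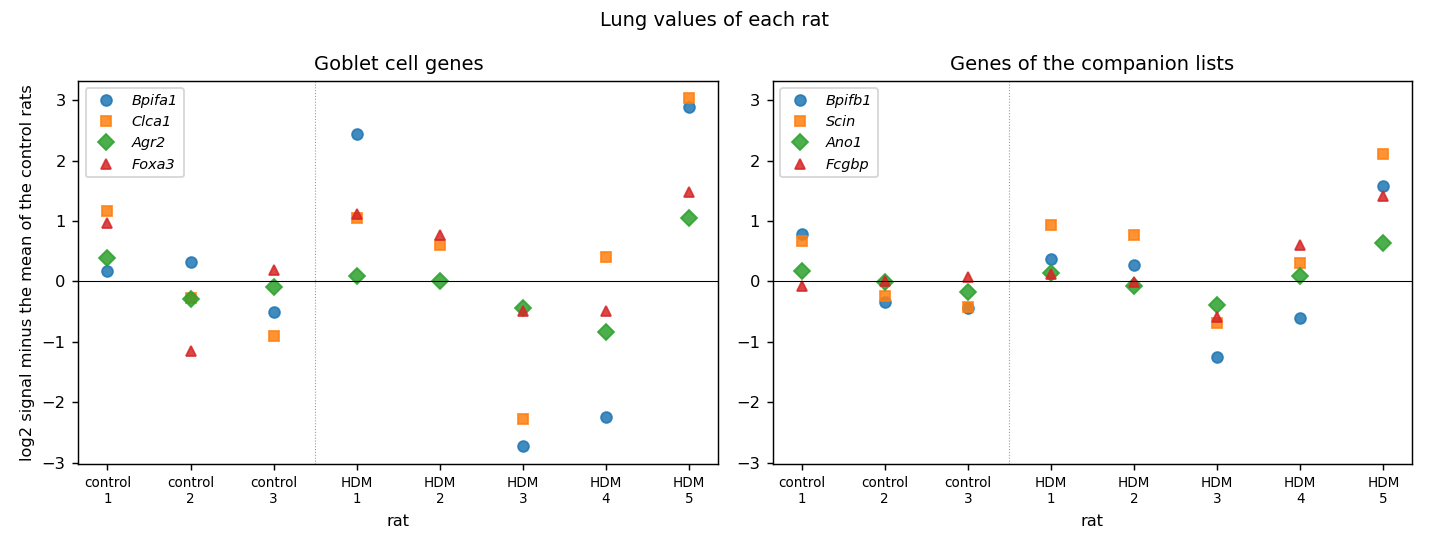
Lung values of each rat as log2 signal minus the mean of the control rats, for Bpifa1, Clca1, Agr2 and Foxa3 (left) and for Bpifb1, Scin, Ano1 and Fcgbp (right). Each marker is 1 rat. HDM rat 5 is highest for all 8 genes, and Bpifa1 of HDM rat 2 is missing because its spot was an outlier.

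The genes whose lung pattern was most like these members were found among 11943 gene symbols well above background on all 8 lung arrays (11957 on the 7 arrays of Bpifa1). For Clca1 they were Gemin4, Slc7a4 and Tenm4, with r of 0.97, 0.96 and 0.96 over 8 arrays. For Agr2 they were Spag6l, Drc3 and Pecr, with r of 0.99, 0.98 and 0.97 over 8 arrays. Spag6l and Drc3 encode axonemal proteins of motile cilia. For Bpifa1 they were Ahcyl1, Ghr and Cyp2d1, with r of 0.97, 0.97 and 0.96 over 7 arrays. These values describe likeness over arrays that share a slide and were given no test.

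Some genes of the companion lists stood among the 15 most similar, and were picked out after their values were seen. Scin, the actin-severing protein scinderin of secretory granules, ranked 5 for Clca1 (r = 0.96). The calcium-activated chloride channel gene Ano1 ranked 7 (r = 0.96), and Bpifb1, a secreted relative of Bpifa1, ranked 13 (r = 0.94). Bpifb1 levels were 3.02, 1.90 and 1.80 in control rats 1 to 3 and 2.62, 2.51, 0.99, 1.63 and 3.83 in HDM rats 1 to 5. As for Clca1, HDM rat 5 was highest and HDM rat 3 lowest. Fcgbp, which encodes a mucus protein that binds immunoglobulin, was -1.92 in HDM rat 5 and between -3.91 and -2.73 in the other 7 rats.

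Markers of other cell types also differed between these lungs. Of 6 airway basal cell markers, Dlk2, Krt15 and Krt14 ranked 5, 7 and 11 among the genes most similar to Bpifa1, with r of 0.96, 0.95 and 0.94 over 7 arrays. Krt15, for example, was -0.23, -0.42 and -0.66 in control rats 1 to 3 and 0.33, -0.10, -1.69, -1.41 and 1.71 in HDM rats 1 to 5. Krt5 was likewise highest in HDM rat 5, but it was well above background on 5 of 8 lung arrays, so its low values carry no order. Ngfr did not follow the order of Krt15, at -1.79 to -1.24 with HDM against -2.48 to -2.04 in controls, and Tp63 stayed between 2.78 and 3.12. The summed level of all 6 basal markers, in multiples of the 75th percentile, was 12.5 in HDM rat 5 and 10.7 in HDM rat 1. It was 9.44, 9.41 and 8.64 in HDM rats 2, 3 and 4, and from 8.41 to 9.25 in the controls. The 5 measured club cell markers summed to between 323 and 420.2 over the lung arrays, with the highest value in HDM rat 5, and the club cell gene Scgb3a1 ranked 8 for Agr2 (r = 0.96). The 5 measured ciliated cell markers summed to between 140.0 and 172. The 7 airway cartilage markers summed to 1.24 in HDM rat 1 and 1.60 in HDM rat 2, against 0.32 to 0.41 in the other 6 rats. The 8 adipocyte markers summed to 39.8 in HDM rat 5 and to between 10.7 and 28.6 in the other 7 lungs, and this sum (log2) had r of 0.70 with Agr2, 0.68 with Bpifa1 and 0.52 with Clca1. The corresponding r of the basal sum was 0.74, 0.70 and 0.60. For the club cell sum it was 0.75, 0.45 and 0.33, and for the ciliated cell sum 0.57, 0.30 and -0.04. For the airway cartilage sum it was 0.11, 0.58 and 0.20. The 6 measured alveolar type 2 markers summed to between 984 and 1183, with r of -0.30, -0.60 and -0.70. These r cover 8 lung arrays of 1 slide (7 for Bpifa1). The part of these cell types in the spread of Clca1, Agr2 and Bpifa1 was not tested.

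The rest of the pathway was read from 7 lists of 125 genes, of which 112 had a probe. None of the 112 was called in lung by limma, 20 had an unadjusted p below 0.05 (7 higher and 13 lower with HDM) beside 10.2% of all probes, and the methods' t-test called 1. The median log2 difference over the 112 genes was -0.07, beside 0.00 over all probes. Groups did not overlap for 15 of the 112 genes, or 13.4%, beside 9.66% of all probes. In adipose tissue none was called either (11 at an unadjusted p below 0.05 by limma, beside 9.9% of all probes, and 0 called by the methods' t-test).

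**Figure D3:**
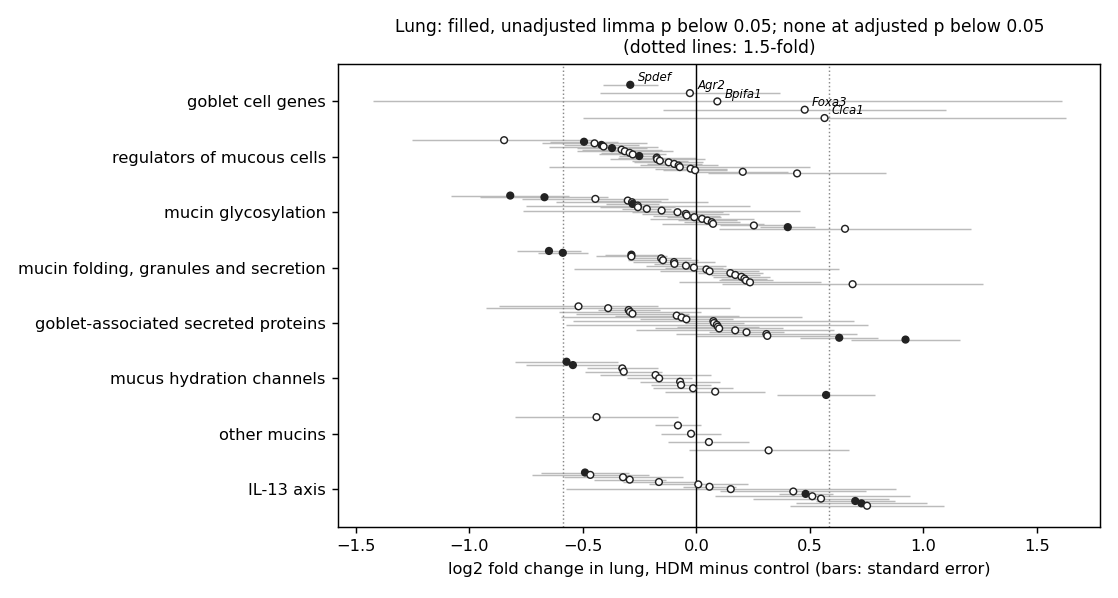
Log2 fold change in lung, HDM minus control, for the 5 goblet cell genes and the 112 genes of the companion lists. Each point is a gene with its standard error, filled where the unadjusted limma p is below 0.05, and dotted lines mark 1.5-fold. The widest bars belong to Clca1 and Bpifa1, and 20 of the 112 companion points are filled.

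Upstream of the program, the list of the IL-13 axis had 15 measured genes, and none was called. At an unadjusted p below 0.05, 3 were higher and 1 lower, beside 10.2% of all probes. The eosinophil chemokine gene Ccl11 had log2 levels of 5.04 ± 0.22 (SD, n = 5) with HDM and 4.34 ± 0.28 (SD, n = 3) in controls, a difference of 0.70 (SE 0.17) with an adjusted p of 0.151 by limma. The epithelial alarmin Il33 was at 4.47 ± 0.16 against 3.99 ± 0.02, a difference of 0.48 (SE 0.12) with an adjusted p of 0.150. All 5 HDM rats lay above all 3 controls for both genes, and Ccl11 passed under some other settings. Groups did not overlap for 13.3% of this list, beside 9.66% of all probes. Postn, the matrix protein periostin, differed by -0.49 (SE 0.19; adjusted p = 0.428 by limma) with overlapping groups. Il13 itself was well above background on 2 of 8 lung arrays.

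Among 22 measured regulators of mucous cells, 20 had a lower mean with HDM, 4 of them at an unadjusted p below 0.05 (10.2% of all probes), and none was called. The median difference of the list was -0.21, beside 0.00 over all probes, of which about as many were higher as lower. The shared direction of this chosen list was not tested. The summed level of the 6 measured alveolar type 1 markers was also lower in every HDM lung, at 602 to 653 against 714 to 771 in controls. Over the 8 lung arrays, Spdef had r of 0.62 with this sum (log2), 0.79 with the ciliated cell sum and 0.64 with the mesothelium sum. With the other marker sums its r was between -0.63 and 0.44. The part of these cell types in the differences of the list and of Spdef was not tested. Nrg1, which encodes the growth factor neuregulin 1, differed by -0.49 (SE 0.15; adjusted p = 0.249 by limma) and Xbp1, a factor of the unfolded protein response in secretory cells, by -0.25 (SE 0.09; adjusted p = 0.359). Groups did not overlap for either gene, nor for 13.6% of the list, beside 9.66% of all probes. Erbb3, a receptor for neuregulin, differed by -0.42 (SE 0.16; adjusted p = 0.427) with overlapping groups.

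In the machinery that folds and releases mucins, 18 of 19 genes were well above background on every lung array. Of the 19 genes, 3 were lower at an unadjusted p below 0.05, beside 10.2% of all probes. All 3 encode endoplasmic reticulum proteins of general use in secretory cells. Creld2 had levels of 0.84 ± 0.11 (SD, n = 5) with HDM and 1.42 ± 0.12 (SD, n = 3) in controls, a difference of -0.59 (SE 0.11) with an adjusted p of 0.0659 by limma, the smallest among the 112 genes. Hspa5, the chaperone BiP, differed by -0.65 (SE 0.14; adjusted p = 0.103) and Pdia5 by -0.29 (SE 0.12; adjusted p = 0.460). The HDM rats lay below every control for all 3 genes. Groups did not overlap for 4 of the 19 genes, beside 9.66% of all probes. Creld2 and Hspa5 passed under some other settings, the methods' t-test among them for Creld2 alone.

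Of 21 measured genes for mucin glycosylation, 1 was higher and 3 were lower at an unadjusted p below 0.05, beside 10.2% of all probes. Gcnt1, a core branching enzyme, differed by 0.40 (SE 0.12; adjusted p = 0.252 by limma), and Galnt3, which starts O-glycan chains, by -0.28 (SE 0.11; adjusted p = 0.456). Gcnt3 was well above background on no lung array and is given no fold. Among 19 goblet-associated secreted proteins, 2 were higher at an unadjusted p below 0.05, near the 10.2% of all probes. Dmbt1, a mucosal scavenger protein, differed by 0.92 (SE 0.24; adjusted p = 0.175), or 1.89-fold, and the antiprotease gene Slpi by 0.63 (SE 0.17; adjusted p = 0.197), or 1.55-fold. The HDM rats lay above every control for both, and both passed under some other settings. Groups did not overlap for 10.5% of this list, beside 9.66% of all probes. Clca2, a relative of Clca1, differed by -0.30 (SE 0.14; adjusted p = 0.533) with overlapping groups.

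Channels that set the hydration of mucus included 11 measured genes. At an unadjusted p below 0.05, 1 was higher and 2 were lower, beside 10.2% of all probes. Slc26a4, the anion exchanger pendrin, differed by 0.57 (SE 0.22; adjusted p = 0.396 by limma). The sodium channel subunit genes Scnn1a and Scnn1g differed by -0.57 (SE 0.23; adjusted p = 0.440) and -0.54 (SE 0.21; adjusted p = 0.401), with all HDM rats below all controls. Groups did not overlap for 18.2% of this list, beside 9.66% of all probes. Among 5 measured genes of other mucins, none passed at the unadjusted level, and Muc19 was well above background on 1 of 8 lung arrays. Muc20 differed by 0.32 (SE 0.35; adjusted p = 0.910) and the sialomucin gene Cd164 by -0.08 (SE 0.10; adjusted p = 0.925).

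Set against adipose tissue of the same rat, 3 of the 5 goblet cell genes were higher in lung of control rats by limma, where 12% of all probes were called higher in lung. Bpifa1 was below background on all 3 control adipose arrays, and its lung level was at least 1040-fold higher (adjusted p = 0.000278). Such a bound sets the lung mean against the dimmest signal that counts as well above background on each adipose array. The adjusted p of Bpifa1 and Clca1 tests the measured difference, with its dim adipose values, and not the bound. Clca1 was below background on all 8 adipose arrays and was at least 81.3-fold higher in lung of control rats (adjusted p = 0.000903), and at least 133-fold in HDM rats. Spdef was higher by 4.15 (SE 0.25) on the log2 scale, or 17.8-fold (adjusted p = 3.51e-05). Under the methods' t-test none of the 3 passed, with adjusted p-values from 0.0706 to 0.0735.

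Foxa3 was well above background on no adipose array and gave no tissue comparison. The Agr2 probe was well above background on 2 of 3 control and 1 of 5 HDM adipose arrays, so the differences of the other rats are measured against a signal not well above background. Lung minus adipose was -1.94, 6.36 and 4.63 in control rats 1 to 3, and -2.88, 6.45, 6.80, 5.19 and 8.09 in HDM rats 1 to 5. In control rat 1 and HDM rat 1 the adipose array was brighter than the lung array, and in the other 6 rats it was dimmer. The mean over control rats was 3.01 (SE 2.19), with an adjusted p of 0.279 by limma. Without control rat 1 and HDM rat 1, it was 5.49 (SE 0.72) with an adjusted p of 0.00531. Over the 5 HDM rats the mean was 4.73 (SE 1.70) with an adjusted p of 0.0483 by limma, where 14.6% of all probes were called higher in lung. That mean includes HDM rat 1, at -2.88, and is given only with it.

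**Figure D4:**
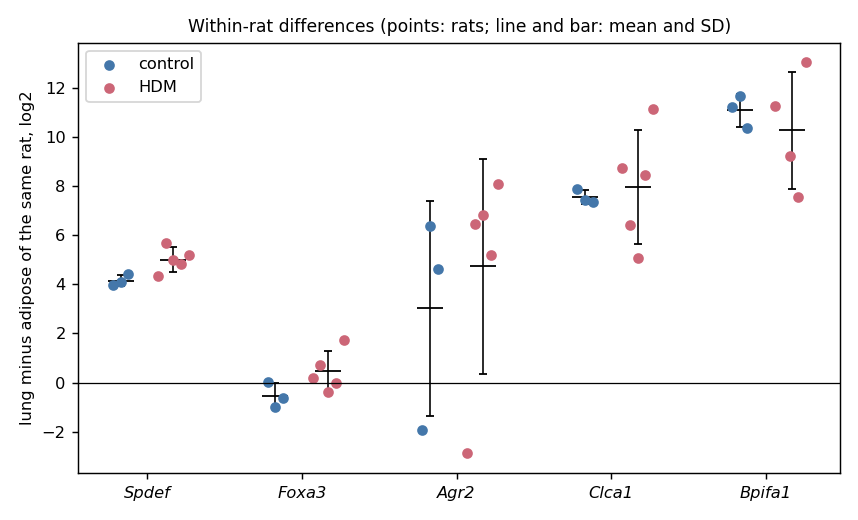
Difference in log2 level between lung and adipose tissue of the same rat for the 5 goblet cell genes, with control and HDM rats side by side. Points are rats, and lines with bars are mean and SD. Spdef, Clca1 and Bpifa1 are positive in every rat measured, and Agr2 is below 0 in control rat 1 and HDM rat 1.

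Agr2 in adipose tissue followed genes of the epididymis. Its levels were 2.98, -5.99 and -4.07 in control rats 1 to 3 and 3.63, -5.80, -6.59, -5.37 and -6.39 in HDM rats 1 to 5. The values of control rat 1 and HDM rat 1 were thus far above the other 6, and the probe was well above background on 1 further array, that of control rat 3. The summed level of 8 epididymis markers was 2735 in control rat 1, 2139 in HDM rat 1 and 29.0 in control rat 3, and from 0.21 to 3.86 in the other 5 rats. On the lung arrays the same markers summed to between 0.25 and 0.36. The part of epididymis RNA in the Agr2 signal of adipose tissue was not tested.

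**Figure D5:**
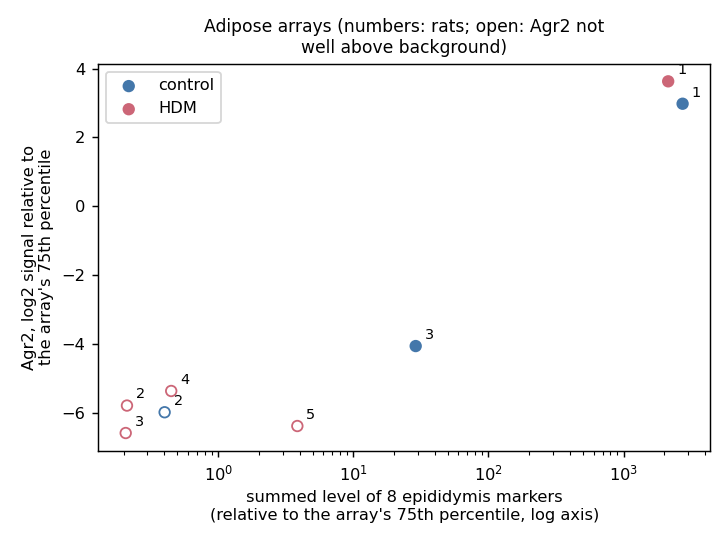
Agr2 on the 8 adipose arrays (log2 signal relative to the 75th percentile) against the summed level of 8 epididymis markers on a log axis. Points are rats, open where Agr2 is not well above background. Control rat 1 and HDM rat 1 lie far to the upper right, control rat 3 lies between, and the other 5 rats lie at the lower left.

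Between HDM and control rats, none of the 5 genes was called in adipose tissue by limma, where 0% of all probes were called. At an unadjusted p below 0.05, 1 of the 5 passed, beside 9.9% of all probes, and the methods' t-test called none. That gene was Spdef, at -2.74, -2.90 and -3.45 in control rats 1 to 3 and -3.59, -4.79, -4.07, -4.17 and -4.21 in HDM rats 1 to 5. All HDM rats lay below all controls, and the probe was well above background in all 3 controls and in 2 of 5 HDM rats. The difference was -1.14 (SE 0.29), with an adjusted p of 0.322 by limma and an exact permutation p of 0.0179, the smallest possible. Over all adipose probes the median difference was -0.15. Without control rat 1 and HDM rat 1, the Spdef difference was -1.14 with an adjusted p of 0.527, and with array weights it was -1.19 with an adjusted p of 0.0437. The size depended on the scaling and background correction, with -0.79 after quantile normalization, -0.84 with the array median and -0.33 (adjusted p = 0.625 by limma) with normexp.

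Bpifa1 was well above background on 1 adipose array, that of HDM rat 1, at -3.50, which was also an array with high epididymis markers. Of the 5 measured club cell markers, 4 were well above background on that array, and their summed level of 13.2 was the highest among adipose arrays. Cldn10 was highest there (3.69), and the main club cell secretoglobin gene Scgb1a1 was at -4.38. All 6 basal and all 5 measured ciliated cell markers were also well above background there, as in control rat 1. The ciliated sum of 22.8 was nevertheless the lowest among adipose arrays. The Bpifa1 difference between HDM and control rats was 0.73 (SE 0.64; adjusted p = 0.778 by limma), and 0.37 (SE 0.63) without control rat 1 and HDM rat 1. Agr2 differed by -1.74 (SE 2.84; adjusted p = 0.835), and by -1.01 (adjusted p = 0.865) without control rat 1 and HDM rat 1.

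The difference between the tissues in their HDM response was tested within rats. None of the 5 genes was called by limma, where 0.00219% of all probes were called, and the methods' t-test called none. At an unadjusted p below 0.05, 1 of the 5 passed, beside 7.74% of all probes. Spdef gave the smallest unadjusted p of 0.0279, with the HDM difference higher in lung than in adipose tissue by 0.85 (SE 0.32; adjusted p = 0.603). That value was 0.50 with scaling to the array median, 0.56 with quantile normalization and 0.14 with normexp, with adjusted p-values of 0.573, 0.795 and 0.919 by limma. The corresponding values were 0.40 (SE 1.22) for Clca1, 1.72 (SE 2.77) for Agr2 and -0.82 (SE 1.24) for Bpifa1, with adjusted p-values from 0.859 to 0.930. Without control rat 1 and HDM rat 1 they were 0.37, 1.14 and -1.08.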

How the data were processed

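RNA of lung and adipose tissue (50 ng per sample) was labelled with Cy3 and hybridised to Agilent rat arrays. The deposited files hold the intensity of 62976 spots per array from Agilent Feature Extraction 12.0.3.1, background-subtracted by the authors' scanner software, with other columns of deposited outlier, background and saturation flags. The authors also deposited a log2 table of 45738 probes, scaled per array and, within 0.1 in 99.9% of values, centred on the median of each probe in each tissue; it was used as an alternative.

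Control and outlier spots were left out, spots of a probe were averaged (45598 probes), and log2 signals were taken minus each array's 75th percentile. Probes were named through RefSeq accessions (21229 with a symbol). Groups came from the sample titles. Limma 3.58.1 in R 4.3.3 was fitted per tissue and on lung minus adipose of each rat, with Benjamini-Hochberg adjustment over all probes. Numbers of lung and adipose arrays name the same rat in the labels, and their deviations from group means correlated at -0.10 to 0.11. Single genes were tested by exact permutation, two-sided. P-values measure the spread between rats. The number of arrays limits the precision.

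Named genes were all members, from each companion list any gene called and otherwise the 3 with the smallest lung p, and for Clca1, Bpifa1 and Agr2 the 3 most correlated symbols. The relations had been planned for 36 pairs of 9 genes, of which 10 pairs could be measured. Members and lists were chosen with earlier results of these data known. Background was also corrected by normexp (offset 50) on median spot signals. The fits were tested on simulated data. In lung, limma called 54% of 100 probes changed by 1 on the log2 scale and 96% of 100 changed by 2. There were 12 false calls. The changed probes were drawn from those well above background on every lung array, where the median SD between HDM rats was 0.20. Clca1 (SD 1.90), Bpifa1 (2.99) and Agr2 (0.71) varied far more, so these shares do not apply to them. Other alternatives covered scaling, filters on dim probes, outlier spots, weights, blocks and each rat left out.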

Additional observations from a re-analysis of the deposited data

Results flagged for a closer look

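Agr2 in adipose tissue of HDM rat 1 stood far from the other HDM rats. Its log2 level of 3.63 was separated from the next value of -5.37 by 0.880 of the range of the 5 HDM rats. Of 35 groups of HDM values examined in this way, this was the 1 that passed, where chance alone marks about 1 in 20.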

How the results depend on the processing

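In lung, 0 of the 5 goblet cell genes were called under all 22 alternatives. In adipose tissue 0 were called under all 23 except array weights, which called 1 (Spdef), and 0 were called for the difference between the tissues' responses under all 18. Higher in lung of control rats were 3 genes, with 0 under the methods' t-test and 4 without control rat 1 and HDM rat 1, a setting added after seeing the data. The count of companion genes called in lung, 0 in the main setting, was 5 with normexp, 1 under the methods' t-test, 6 when adjusted only over probes past 1.5-fold, 1 with dim probes left out and 3 with array weights, and 0 to 1 with each rat left out (1 without HDM rat 4, Il9). Creld2 was among those called under each of these settings except the last. Dmbt1 and Hspa5 were also called with normexp, with array weights and when adjusted only over probes past 1.5-fold. Ccl11 and Slpi were called with normexp and over probes past 1.5-fold, and Gcnt3 over probes past 1.5-fold alone. The cause was not tested.

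Differences near 0 changed sign under some settings, and none of these passed the test. In lung, Agr2 was 0.0082 with the 75th percentile over well measured probes, 0.042 with normexp, 0.056 with array weights, 1.05 with the slide row blocked and -0.30 to 0.17 with each rat left out. Bpifa1 was -0.18 in the deposited table and -0.18 with outlier spots kept, and -0.84 (without HDM rat 5) to 1.03 (without HDM rat 3) with each rat left out. Clca1 was -0.052 (without HDM rat 5) to 1.27 (without HDM rat 3), and Foxa3 -0.10 (without control rat 2) to 0.96 (without control rat 1). In adipose tissue, Bpifa1 was -0.12 with normexp, and Clca1 was -0.25 with Gapdh and Hprt1, -0.15 with normexp, -0.041 with array weights, -0.54 with the slide row blocked and -0.24 to 0.58 with each rat left out. Agr2 was -3.68 (without HDM rat 1) to 0.92 (without control rat 1). For the difference between the responses, Bpifa1 was 0.14 with normexp and -1.74 to 0.088 with each rat left out, Clca1 was -0.053 with quantile normalization and -0.39 to 1.13, and Agr2 was -0.76 to 3.62. Foxa3 in lung minus adipose of control rats was 0.12 with the 75th percentile over well measured probes, 0.38 with quantile normalization and -0.94 with normexp, where it passed the test.

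With the replicate block, Clca1 in lung was -0.20 (adjusted p = 0.880 by limma) and no call changed, nor did any without the replicate block in the within-rat fits. HDM and control rats share only a number, and their deviations correlated at -0.08 to 0.05 in lung and 0.10 to 0.59 in adipose tissue. Each member had 1 probe, so the alternatives over other probes were not run. Values not well above background limit Foxa3 in both tissues and Clca1, Bpifa1, Agr2 and, in HDM rats, Spdef in adipose tissue.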
